A study of Homo sapiens with 9 samples.

Results

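In the transcriptome of PC-3 multicellular tumor spheroids (MTSs), 8 genes were lower than in Empty when the long isoform of NF-YA was overexpressed and higher than in Empty when the short isoform was overexpressed. They are NCKAP1L, CYTH4, DHRS2, PADI3, AACSP1, ANKRD26P1, CCDC144NL-AS1 and NCOR1P1. They were selected on their expression differences against Empty, in the same 9 libraries described here, from 27111 genes in the count files, of which 17108 had enough counts to be tested. All 8 were among the tested genes. Their differences between the 3 groups are therefore a description of the choice, and no test of them is given.

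PC-3 is a human prostate carcinoma cell line. The cells carried an empty lentiviral vector (Empty), or a vector expressing the murine sequence of NF-YAl or of NF-YAs, after puromycin selection. All cells kept their endogenous human NFYA gene, and each construct was represented by 1 stable line. Each group had 3 libraries of total RNA from pooled MTSs, lettered A to C for Empty and NF-YAs. Those of NF-YAl were lettered A, B and D. The 3 libraries of a group came from independent experiments with the same line, so an effect of the transgene and a property of the line that carries it cannot be told apart.

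NF-Y is a heterotrimeric transcription factor that binds the CCAAT box of promoters, and NF-YA is the subunit that reads the sequence. NF-YAl and NF-YAs arise by inclusion or skipping of an exon that encodes part of the glutamine-rich transactivation domain, and share the DNA-binding domain. The 8 genes do not form a known pathway. NCKAP1L (also called HEM1) is the hematopoietic version of a subunit of the WAVE regulatory complex, which switches on branched actin assembly by the Arp2/3 complex. CYTH4, cytohesin-4, is an exchange factor that loads ARF GTPases with GTP and is known mainly from leukocytes. DHRS2 is a short-chain dehydrogenase/reductase that reduces carbonyl compounds. PADI3 is a peptidylarginine deiminase of hair follicle and epidermis, which converts arginine in proteins to citrulline. AACSP1, ANKRD26P1 and NCOR1P1 are transcribed pseudogenes named after AACS, the acetoacetyl-CoA synthetase, ANKRD26, an ankyrin repeat protein, and NCOR1, a nuclear receptor corepressor. CCDC144NL-AS1 is a long non-coding RNA transcribed opposite to CCDC144NL.

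Total expected counts were between 18076979 and 27163976 per library. NFYA, whose counts can include reads of the murine transgenes, was at 89.2 to 96.7 CPM (counts scaled to the library total) with the empty vector, 286.9 to 383.1 CPM with NF-YAl and 254.0 to 264.5 CPM with NF-YAs. The keratin genes KRT8 and KRT18 had group means of at least 113.7 CPM. KLK2 and KLK3, defining genes of the luminal prostate, were too low to be tested. Where 3 values of a gene follow each other with no group named, they are the means of Empty, NF-YAl and NF-YAs in this order. All CPM below are scaled by TMM, and log2 fold changes (log2FC) with their standard errors (SE) come from the edgeR fit of all genes.

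Every NF-YAl library was below every Empty library, and every Empty library below every NF-YAs library, for 8 of the 8 genes. Among all tested genes, 278 or 1.62% showed this full order, 21.4% had every NF-YAl library below every Empty library, and 29.2% had every NF-YAs library above. A gene was called at a |log2FC| above 1 with an adjusted p under 0.01. By this rule 3.5% of all tested genes were called lower in NF-YAl and 5.44% higher in NF-YAs, and 10 genes or 0.0585% passed both, the 8 among them. Nothing is read from these shares, since this order chose the genes. Both contrasts use the same Empty libraries, so a low or high Empty value moves both log2FC of a gene.

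**Figure D1:**
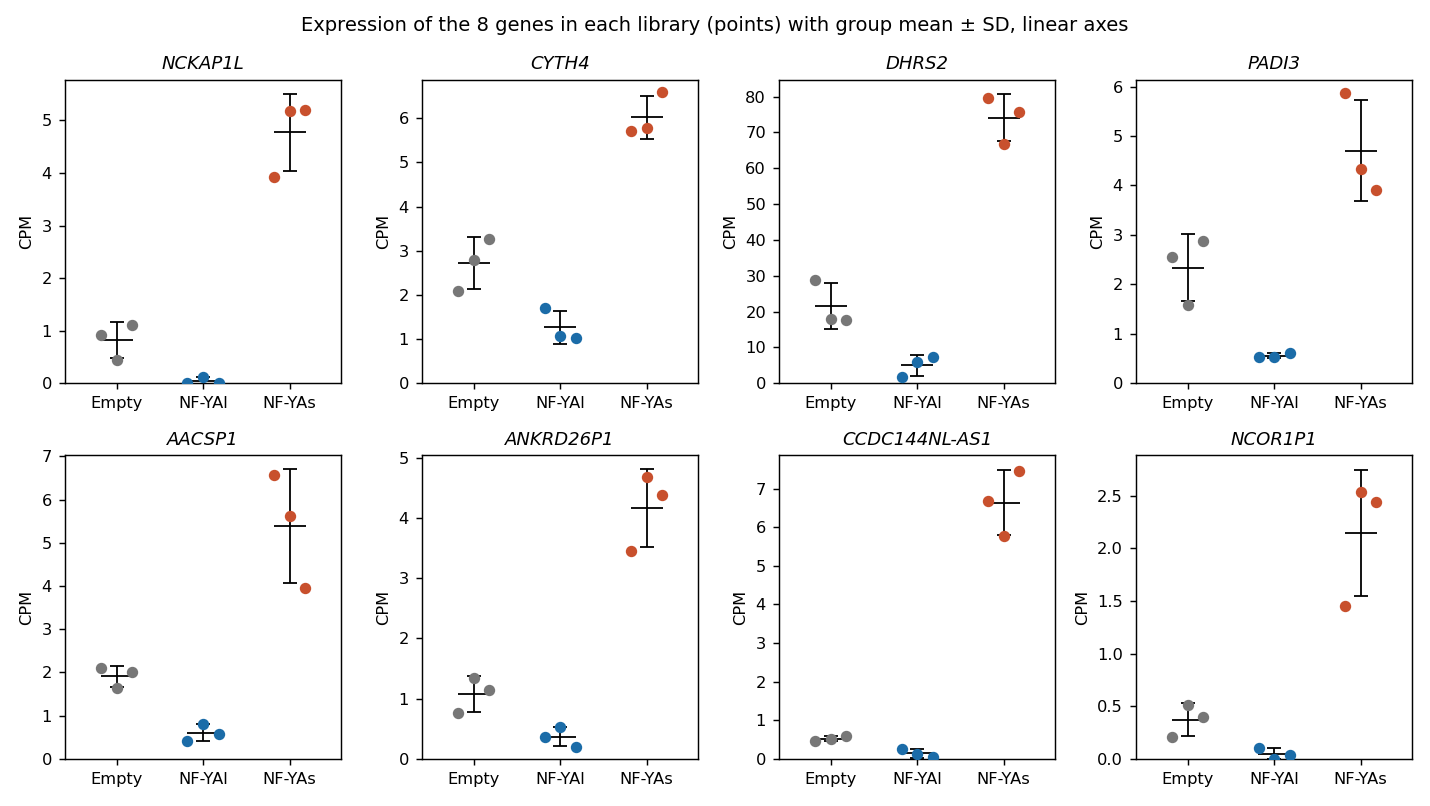
CPM (linear axes from 0) of the 8 genes in the 3 Empty, 3 NF-YAl and 3 NF-YAs libraries, with points for libraries in the order of their letters, dashes for group means and bars for the SD. No group overlaps another in any of the 8 genes, and in NF-YAl NCKAP1L and NCOR1P1 sit at or next to 0.

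DHRS2 was the only member above the middle of the expression range, with a mean over the 9 libraries at the 63.0 percentile of all tested genes. The Empty libraries A, B and C had 28.9, 18 and 17.6 CPM, the NF-YAl libraries A, B and D had 1.70, 5.97 and 7.27 CPM, and the NF-YAs libraries A, B and C had 79.7, 66.8 and 75.8 CPM. Library values below follow this order of letters. NF-YAl A stood below the other NF-YAl libraries by over a factor of 3, whereas the NF-YAs libraries were close to each other. The log2FC was -2.08 (SE 0.35) in NF-YAl and 1.79 (SE 0.31) in NF-YAs, and -3.86 (SE 0.36) between NF-YAl and NF-YAs. The mean level per length was 16.7 ± 7.91, 5.11 ± 4.19 and 62.7 ± 9.78 TPM (SD, n = 3) in the same order of groups. DHRS2 passed both thresholds with each of the 9 libraries left out in turn.

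DHRS2 lies on the plus strand of chromosome 14, at chr14:24099324-24114848 of GRCh37, and no other annotated gene overlaps it. It had 3 quantified RefSeq transcripts. The transcript NM_005794.3 took 88.6 ± 4.03%, 87.7 ± 2.02% and 88.8 ± 2.95% of the gene's TPM (SD, n = 3). NM_001318835.1 took 7.73 ± 2.16%, 10.8 ± 1.33% and 8.05 ± 1.06%. NM_182908.4 took 3.65 ± 1.93%, 1.49 ± 2.59% and 3.16 ± 2.08%, with 0% in NF-YAl A and D, from 32 and 177 reads of the gene, and 4.48% in NF-YAl B.

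The promoter of DHRS2 is shown because NF-Y reads CCAAT, and DHRS2 is the member that the RefSeq promoter table matched. It covers 250 bases before and 50 after the start, at chr14:23629865-23630164 of GRCh38.p14 on the plus strand, and the capitals mark a TATAAA box:
DHRS2 promoter: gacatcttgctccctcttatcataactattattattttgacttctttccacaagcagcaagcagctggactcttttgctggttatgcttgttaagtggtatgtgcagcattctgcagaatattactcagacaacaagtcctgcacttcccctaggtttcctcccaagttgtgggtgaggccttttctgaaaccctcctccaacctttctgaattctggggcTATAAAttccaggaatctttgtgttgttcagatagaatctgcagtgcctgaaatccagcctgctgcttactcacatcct
TATAAA, searched on the gene's strand, began 29 bases before the start and occurred in 7.33% of the 35116 promoters of the table. CCAAT, searched on both strands (ATTGG on the other), had 0 matches in these 300 bases and was present in 34.6% of the promoters. This says only that these letters are not in this window.

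NCKAP1L was nearly absent from NF-YAl. Its expected counts were 22, 11 and 28 in the Empty libraries, 0, 3 and 0 in those of NF-YAl and 73, 104 and 113 in those of NF-YAs. All the NF-YAl reads came from replicate B, and 3 counts correspond to 0.12 CPM there. The group means were 0.82 ± 0.34, 0.041 ± 0.071 and 4.77 ± 0.73 CPM (SD, n = 3). Over summed counts, Empty exceeded NF-YAl 18.5-fold (exact 95% interval 6.03 to 92.1) and NF-YAs exceeded NF-YAl 108-fold (36.7 to 528), intervals that cover counting error only. The log2FC in NF-YAs against Empty was 2.53 (SE 0.38).

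NCKAP1L spans chr12:54891536-54942027 of GRCh37 on the plus strand. RSEM assigned all NCKAP1L reads of the NF-YAs libraries to NM_005337.4. In Empty the same transcript took 100% in replicate A, 6.4% in B and 0% in C, the rest going to NM_001184976.1. With 11 to 28 reads in an Empty library, these shares rest on few reads. The antisense gene ENSG00000257824 overlaps 577 of 10560 exonic bases.

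CYTH4 showed smaller differences. It had 2.10, 2.78 and 3.27 CPM in Empty, 1.70, 1.06 and 1.03 CPM in NF-YAl, and 5.71, 5.77 and 6.59 CPM in NF-YAs. The nearest libraries of Empty and NF-YAl, Empty A and NF-YAl A, differed by a factor of 1.24. The log2FC was -1.12 (SE 0.26) in NF-YAl and 1.15 (SE 0.23) in NF-YAs, near the fold threshold on both sides. CYTH4 lies at chr22:37678068-37711382 on the plus strand, and NM_013385.4 took 72.8 to 100% of its TPM in the 9 libraries.

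PADI3 was the member closest to the threshold in NF-YAs. It had 2.56, 1.59 and 2.87 CPM in Empty, 0.53, 0.53 and 0.62 CPM in NF-YAl, and 5.87, 4.33 and 3.92 CPM in NF-YAs. The NF-YAl libraries were tightly grouped, and the nearest Empty and NF-YAs libraries, both of replicate C, differed by a factor of 1.36. The log2FC was -2.05 (SE 0.31) in NF-YAl and 1.0 (SE 0.26) in NF-YAs. PADI3 lies at chr1:17575593-17610728 on the plus strand.

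Among the non-coding members, AACSP1 had 2.10, 1.63 and 2.01 CPM in Empty, 0.42, 0.82 and 0.58 CPM in NF-YAl, and 6.57, 5.62 and 3.96 CPM in NF-YAs. Its groups were apart by factors of 1.99 and 1.89 between the nearest libraries. The log2FC was -1.63 (SE 0.31) in NF-YAl and 1.49 (SE 0.26) in NF-YAs. RSEM gave NR_135095.1 all reads in the 3 Empty libraries, in NF-YAl B and in NF-YAs B and C, and 66.9% of the TPM in NF-YAs A. In NF-YAl A and D the other transcript, NR_024035.2, took 100% and 99.7%, from 8 and 14 reads. The 2 transcripts were thus not split in the same way within NF-YAl.

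ANKRD26P1 had 0.75, 1.35 and 1.14 CPM in Empty, 0.37, 0.53 and 0.21 CPM in NF-YAl, and 3.45, 4.68 and 4.38 CPM in NF-YAs. In NF-YAl this was 7, 13 and 5 counts. The NF-YAl and Empty libraries came within a factor of 1.42 of each other, and the NF-YAs libraries stood clear of Empty by 2.55. The log2FC was -1.54 (SE 0.37) in NF-YAl and 1.94 (SE 0.30) in NF-YAs.

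CCDC144NL-AS1 showed the largest increase over Empty among the 8. The Empty libraries held 11, 13 and 15.3 expected counts, those of NF-YAl 5, 3 and 1, and those of NF-YAs 124, 116 and 162. In CPM the means were 0.52 ± 0.065, 0.14 ± 0.11 and 6.64 ± 0.85 (SD, n = 3). The lowest NF-YAs library was 9.78 times the highest Empty library, while the nearest Empty and NF-YAl libraries differed by 1.74. The log2FC in NF-YAs was 3.65 (SE 0.30). Over summed counts Empty exceeded NF-YAl 3.94-fold (exact 95% interval 1.88 to 9.25). This interval covers counting error only, not the spread between libraries, and describes a contrast used in the choice.

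NCOR1P1 had the fewest reads, with 5.42, 13.4 and 10.1 expected counts in the Empty libraries, 2, 0 and 1.27 in those of NF-YAl, and 26.7, 50.7 and 53.4 in those of NF-YAs. NF-YAs A was at 1.45 CPM against 2.54 and 2.44 CPM in NF-YAs B and C, and still above every Empty library. Over rounded summed counts Empty exceeded NF-YAl 8.48-fold (2.62 to 43.6) and NF-YAs exceeded NF-YAl 48.9-fold (16.4 to 240). These intervals too cover counting error only. The log2FC in NF-YAs was 2.50 (SE 0.42). In 7 of 9 libraries its expected count was not a whole number, which marks reads that RSEM shared between transcripts. DHRS2 and CCDC144NL-AS1 each had 1 such library, and the other members none.

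The members differ in level when compared per length. In NF-YAs, DHRS2 was highest with 62.7 TPM, followed by NCOR1P1, a short transcript, with 10.3 ± 2.18 TPM (SD, n = 3). AACSP1, CCDC144NL-AS1 and CYTH4 had 2.58 ± 0.84, 2.52 ± 0.33 and 2.47 ± 0.13 TPM and overlapped each other, as did PADI3 with 1.98 ± 0.61 and NCKAP1L with 1.59 ± 0.13 TPM. ANKRD26P1 was lowest with 0.87 ± 0.087 TPM. In TPM as in CPM, the 3 groups did not overlap for 8 of 8 genes. By mean CPM, 7 of the 8 were below the median of all tested genes, which was 19.1 CPM, and these 7 stood between the 9.81 and 24.7 percentiles.

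The pseudogenes are shown against their parent genes, since reads that match both can be shared between them. Of each pair, the ungapped stretch of 80 bases with the most differences is printed, within the coding sequence of the parent, with the differing bases in capitals and positions counted from the start of the GENCODE transcript:
AACSP1, bases 783 to 862: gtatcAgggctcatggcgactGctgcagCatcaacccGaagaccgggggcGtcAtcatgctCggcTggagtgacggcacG
AACS, bases 1700 to 1779: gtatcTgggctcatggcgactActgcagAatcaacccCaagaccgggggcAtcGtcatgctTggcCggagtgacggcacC
ANKRD26P1, bases 141 to 220: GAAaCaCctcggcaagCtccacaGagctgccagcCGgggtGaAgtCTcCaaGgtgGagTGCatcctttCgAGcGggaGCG
ANKRD26, bases 300 to 379: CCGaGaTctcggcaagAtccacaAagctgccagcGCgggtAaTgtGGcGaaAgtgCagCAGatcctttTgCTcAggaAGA
NCOR1P1, bases 186 to 265: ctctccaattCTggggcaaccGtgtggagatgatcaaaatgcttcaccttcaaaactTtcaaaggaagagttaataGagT
NCOR1, bases 714 to 793: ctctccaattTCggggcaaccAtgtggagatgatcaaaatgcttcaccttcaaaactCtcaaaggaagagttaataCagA
The differences in these windows were 9, 26 and 6 bases. Over the longest aligned block, identity was 95.7% for NCOR1P1 (188 bases), 88.6% for AACSP1 (332) and 77.1% for ANKRD26P1 (612). The aligned part was 82.0% of the NCOR1P1 transcript, 72.2% of ANKRD26P1 and 19.9% of AACSP1.

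Of the 357 different 50-base words in NCOR1P1 transcripts, 37.5% also occurred on the same strand in transcripts of other genes, 90 of them in ENSG00000226465, 50 in NCOR1P2 and 34 in NCOR1. NCOR1P1 values are uncertain for this reason. For ANKRD26P1 all 917 words were shared, with ENSG00000290429, an annotated gene at the same place and strand. AACSP1 shared 5 of 3427, all with AACS, and PADI3 shared none. CCDC144NL-AS1 shared 3.4% of its words in sense and 8.15% in antisense. These words come from GENCODE, while the authors counted on RefSeq transcripts, so they show where reads can be ambiguous and not how many were.

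The parent genes did not show the pattern of the pseudogenes. AACS was at 35.2 ± 0.86, 39.2 ± 5.79 and 45.9 ± 0.78 CPM, ANKRD26 at 30.9 ± 2.43, 43.2 ± 7.92 and 38.0 ± 4.01 CPM, and NCOR1 at 149.7 ± 3.11, 147.3 ± 8.64 and 159.0 ± 9.81 CPM (SD, n = 3). None of the 3 passed both thresholds in either contrast. CCDC144A, a paralog in the CCDC144 family, was at 0.90, 0.83 and 0.50 CPM and did not pass either.

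CCDC144NL, on the strand opposite to CCDC144NL-AS1, was at 1.38, 1.23 and 1.18 CPM in Empty, 1.17, 0.61 and 0.82 CPM in NF-YAl, and 6.62, 7.76 and 7.23 CPM in NF-YAs. It rose in NF-YAs with a log2FC of 2.51 (SE 0.23, edgeR adjusted p = 8.97e-06), while the difference in NF-YAl did not pass the test (log2FC -0.56, SE 0.26, adjusted p = 0.12). The annotated exons of the pair share no base. CCDC144NL-AS1 shares 394 of 13343 exonic bases with USP22 on the other strand, which was at 378.9, 401.2 and 391.0 CPM with adjusted p of 0.62 and 0.78. The kit was stranded, but whether the authors counted by strand is not given in the sources used here, so reads of the bases shared with USP22 cannot be assigned to 1 of the genes.

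The other genes of the same families and pathways were taken from 5 lists. Of 23 tested genes of the WAVE and Arp2/3 complexes, 1 was called in NF-YAl and 1 in NF-YAs, both higher. Of all tested genes, 4.76% rose and 3.5% fell in NF-YAl, and 5.44% rose and 3.9% fell in NF-YAs. NCKAP1, the widely expressed counterpart of NCKAP1L, was at 128.2 ± 4.40, 135.2 ± 24.2 and 125.4 ± 11.6 CPM, with log2FC of 0.08 and -0.03. CYFIP2, a WAVE complex subunit, was the gene that rose in NF-YAl, from 23.6 to 58.1 CPM (log2FC 1.3, adjusted p = 2.48e-05). It was also higher in NF-YAs, at 42.2 CPM, under the fold threshold (log2FC 0.84, adjusted p = 0.00045). ABI3, another subunit, rose in NF-YAs at a level under 1 CPM (log2FC 2.23). In NF-YAl its log2FC was 1.68 and it was not called (adjusted p = 0.043). RAC2, the RAC GTPase of blood cells and the nearest tested gene to CYTH4, had 37.5, 40.9 and 39.5 CPM in Empty, 19.7, 24.5 and 25.8 CPM in NF-YAl, and 52.0, 56.3 and 59.7 CPM in NF-YAs. Its groups did not overlap, with log2FC of -0.75 (SE 0.11, adjusted p = 0.00037) and 0.51 (SE 0.11, adjusted p = 0.0036), both under the fold threshold. In the direct comparison of the lines it was called lower in NF-YAl, as were 2.86% of all tested genes.

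Of 19 tested ARF exchange factors and ARF GTPases, 1 fell in NF-YAl and 1 in NF-YAs, where 3.5% and 3.9% of all tested genes fell. These calls against Empty were PSD4, an ARF6 exchange factor, in NF-YAl (log2FC -1.43) and ARF4, a GTPase of the Golgi, in NF-YAs (log2FC -1.04). Both were also lower in the other line, under the fold threshold. PSD4 had a log2FC of -0.74 in NF-YAs (adjusted p = 0.00078), and ARF4 had -0.93 in NF-YAl (adjusted p = 0.00025). The other cytohesins did not pass both thresholds. In NF-YAl, CYTH1, CYTH2 and CYTH3 had log2FC of 0.22, 0.29 and 0.12. In NF-YAs the log2FC of CYTH1 was 0.55 (adjusted p = 0.00055), that of CYTH3 was 0.58 (adjusted p = 0.00052) and that of CYTH2 was 0.02. IQSEC2, an ARF exchange factor of synapses, had 38.4 ± 2.75, 24.0 ± 5.28 and 56.6 ± 3.33 CPM, and its groups did not overlap. Against Empty its log2FC was -0.68 in NF-YAl (adjusted p = 0.0035) and 0.56 in NF-YAs (adjusted p = 0.0088), both under the fold threshold. It was called lower in NF-YAl than in NF-YAs with a log2FC of -1.24.

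Of 17 tested short-chain dehydrogenases and carbonyl reductases, DHRS9, a retinol dehydrogenase, fell in both lines, from 13.3 ± 3.29 CPM to 1.21 ± 0.25 in NF-YAl and 2.84 ± 0.68 in NF-YAs. DHRS4, which by gene midpoint is the nearest tested gene to DHRS2 on its right, was at 12.8, 9.62 and 12.1 CPM and did not pass.

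Of 22 peptidylarginine deiminase and cornified envelope genes, 9 were tested. PADI1, which lies next to PADI3, had 0.96, 0.36 and 0.98 CPM in Empty, 0.27, 0.41 and 0.49 CPM in NF-YAl, and 1.45, 2.49 and 1.34 CPM in NF-YAs. Empty and NF-YAl overlapped, and PADI1 passed only between NF-YAl and NF-YAs (log2FC -2.14, SE 0.44, adjusted p = 0.0047). PADI2 had 2.64, 1.98 and 1.93 CPM and did not pass, and PADI4 was too low to be tested. S100A3, a substrate of PADI3 in the hair cuticle, fell in NF-YAl (log2FC -1.38, adjusted p = 0.0020) and had a log2FC of 0.17 in NF-YAs that did not pass.

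Of 16 tested parent genes and sequence relatives of the non-coding members, 1 rose and 2 fell in NF-YAl, beside 4.76% and 3.5% of all tested genes, and 2 rose and 1 fell in NF-YAs, beside 5.44% and 3.9%. ANKRD30A rose in both lines (log2FC 2.29 and 1.91), ANKRD30B fell in both (-1.90 and -1.02), and CCDC144NL rose in NF-YAs. ANKRD30BP2 fell in NF-YAl (-1.41) and was lower in NF-YAs just under the fold threshold (-0.97, adjusted p = 0.00021). The median log2FC of this list was -0.02 in NF-YAl and 0.15 in NF-YAs, beside 0.01 and -0.00 for all tested genes.

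NCKAP1L, CYTH4 and RAC2 are known from leukocytes, so 28 leukocyte genes were examined. Of these, 16 were tested, and those too low included PTPRC, CD53, LAPTM5, CD48, IKZF1, SPI1, CD3E and TYROBP. The summed level of the list ranged over 66.4 to 87.4 CPM with the empty vector, 71.9 to 73.8 CPM with NF-YAl and 91.7 to 97.6 CPM with NF-YAs, with 3 to 7 of the 28 at 0 in a library. In NF-YAl 1 rose and 1 fell, beside 4.76% and 3.5% of all tested genes, and in NF-YAs 3 rose and 1 fell, beside 5.44% and 3.9%. LCP1, an actin-bundling protein, was at 0.99 ± 0.44, 1.3 ± 0.62 and 16.3 ± 2.67 CPM (log2FC 4.04 in NF-YAs). This single gene made up most of the difference in the summed level between Empty and NF-YAs. ARHGDIB, a GDP dissociation inhibitor of small GTPases, was at 1.81 ± 0.25, 1.25 ± 0.41 and 7.06 ± 0.80 CPM (log2FC 1.96 in NF-YAs). ITGAM rose in both lines and INPP5D fell in both. The MTSs were grown from the PC-3 line alone, and the part of subsets of these cells in the differences was not tested. In bulk RNA, fewer cells of a kind and less RNA per cell cannot be told apart.

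Position along the chromosome was not used in the choice. ANKRD26P1 at chr16:46552217-46602827, NCOR1P1 at chr20:26084052-26094664 and CCDC144NL-AS1 at chr17:20771746-20905589 lie 0.166, 0.225 and 1.36 Mb from an unsequenced gap of at least 1 Mb in GRCh37, on the minus, minus and plus strands. Of 15414 placed tested genes, 2.14% lie within 2 Mb of such a gap. AACSP1 lies at chr5:178191862-178245436 on the minus strand, 129 Mb from one. Of the 8 members 4 are non-coding, beside 9.51% of the placed tested genes. The tested genes that could not be placed are not part of this share.

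Few of the genes around the members were called against Empty. Neighbours were ordered along the chromosome by gene midpoint. Of 80 neighbours, 5 tested genes on each side of each member, 2 rose and 2 fell in NF-YAl, beside 4.76% and 3.5% of all tested genes, and 2 rose and 2 fell in NF-YAs, beside 5.44% and 3.9%. The median log2FC of the 10 neighbours of a member was between -0.22 and 0.11 in NF-YAl and between -0.57 and 0.15 in NF-YAs. By sign alone, 18 of the 80 were lower in NF-YAl and higher in NF-YAs, beside 13.9% of all tested genes.

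Of the 16 nearest tested genes, 1 on each side of a member, 7 were lower in NF-YAl and higher in NF-YAs by sign, beside 13.9% of all tested genes. None of the 16 was called in both contrasts in these directions, and some lie over 1 Mb from the member. PDE1B, a calmodulin-dependent phosphodiesterase that begins 1.36 kb beyond NCKAP1L, was at 0.29, 0.24 and 0.39 CPM in Empty, 0, 0 and 0.041 CPM in NF-YAl, and 0.86, 0.70 and 0.78 CPM in NF-YAs. It was called lower in NF-YAl (adjusted p = 0.0021) and not called in NF-YAs (log2FC 1.32, SE 0.40, adjusted p = 0.022). RAC2, 22.4 kb from CYTH4, PADI1, 3.09 kb from PADI3, and CCDC144NL, which overlaps the span of CCDC144NL-AS1, have been described above. ITGA5, on the other side of NCKAP1L, was at 114.9, 71.9 and 131.6 CPM, with adjusted p of 0.0013 and 0.23. Beside ANKRD26P1, SHCBP1 fell in NF-YAl (log2FC -1.26) and was lower in NF-YAs under the fold threshold (log2FC -0.84, adjusted p = 0.0058). ENPP7P13, on the other side of the gap, rose in NF-YAl from 1.73 to 14.5 CPM, with 27.2 CPM in NF-YAl A and 7.65 and 8.50 in B and D. The 10 neighbours of ANKRD26P1 had a median log2FC of -0.22 in NF-YAl and -0.57 in NF-YAs. For DHRS2, AACSP1 and NCOR1P1, the nearest tested genes JPH4, ZNF354A, ZNF354B, FAM182A and LINC01597 passed in neither contrast.

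Among the genes besides the 8 that passed both thresholds in the same directions was SERPINA1, the protease inhibitor alpha-1 antitrypsin. It was at 5.41, 4.21 and 6.14 CPM, 1.54, 1.10 and 0.94 CPM, and 10.5, 8.96 and 12.7 CPM in the 3 groups (log2FC -2.15 and 1.03). Only GATA2 and JAG2 passed in the reverse order. GATA2, a zinc finger factor, had log2FC of 1.24 and -1.86, and JAG2, a Notch ligand, 1.20 and -1.43. At an adjusted p under 0.01 and any fold, 39 genes had opposite signs in the 2 contrasts, 29 of them lower in NF-YAl.

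The threshold cut through a range of values. Just inside were PADI3, with 1.0 in NF-YAs, and CYTH4, with -1.12 and 1.15. Just outside, with both adjusted p under 0.01, were HECW1 (-0.97 and 1.24), a ubiquitin ligase, TTC6 in the reverse order (1.13 and -0.95) and LOC105376382 (-0.94 and 0.95). A further 17 genes exceeded a |log2FC| of 1 in both contrasts in the members' directions without passing both adjusted p, among them PDE1B.

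**Figure D2:**
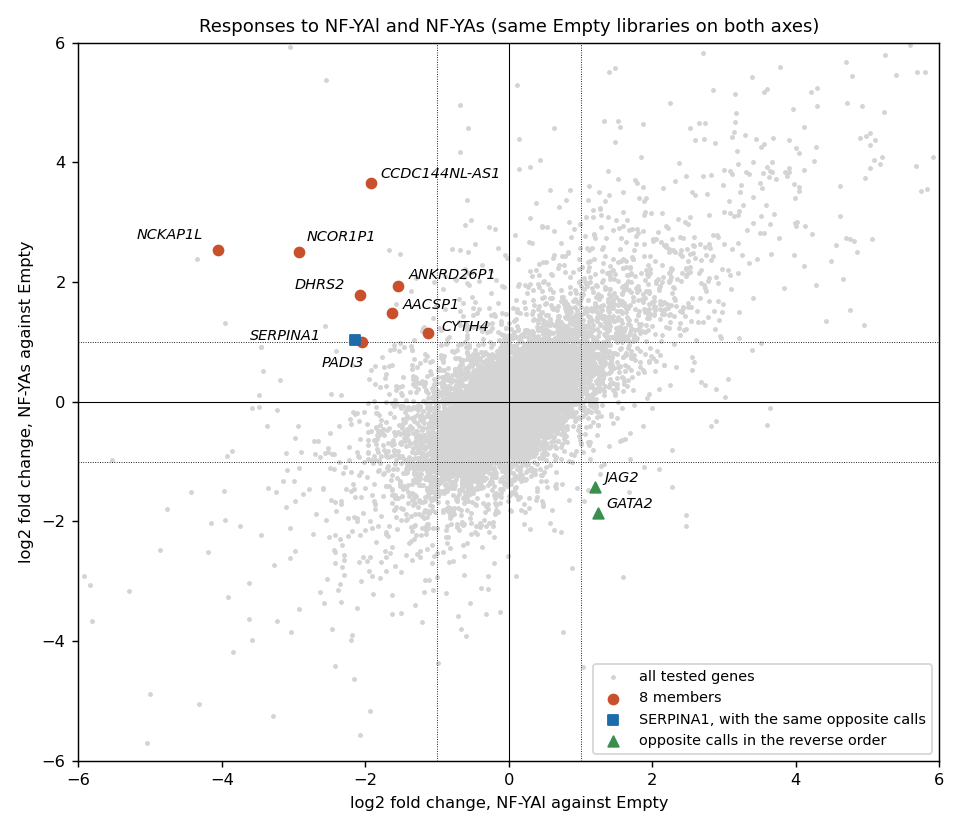
The log2FC in NF-YAl (x axis) and NF-YAs (y axis) against the same Empty libraries for the tested genes (grey, 59 of them outside the axes), with the 8 members, SERPINA1, which had the same calls, and the 2 genes with the reverse calls marked, and dotted lines at a log2FC of 1 in either direction. The members spread from CYTH4 and PADI3 at the dotted lines to NCKAP1L and CCDC144NL-AS1, and most genes fall along the diagonal.

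Over the 9 libraries, the members' log2 CPM were alike in all 28 pairs, with a Pearson r between 0.842 and 0.983. After the group means were taken away, r was between -0.896 and 0.808 with a median of -0.0036. These are descriptions over 9 libraries that share the group differences used in the choice. By the same measure, the gene most like each member was NAV3 for NCKAP1L (r = 0.986), ADAM19 for CYTH4 (0.987), HJURP for DHRS2 (0.989), PDE1B for PADI3 (0.989), LRRK2 for AACSP1 (0.982), HECW1 for ANKRD26P1 (0.992), TNRC6C for CCDC144NL-AS1 (0.995) and CYTH4 for NCOR1P1 (0.983). HJURP, a centromere chaperone, was at 60.2, 41.0 and 82.4 CPM, and TNRC6C at 13.9, 9.38 and 33.0 CPM.

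With 1 library left out at a time, DHRS2, NCKAP1L and AACSP1 passed both thresholds in 9 of 9 fits, CYTH4, PADI3, ANKRD26P1 and NCOR1P1 in 2 and CCDC144NL-AS1 in 1. The number of members that passed was 7 without NF-YAl A, 5 without Empty A, 4 without NF-YAl B, NF-YAl D or NF-YAs A, and 3 without Empty B, Empty C, NF-YAs B or NF-YAs C. Each of these fits had 2 libraries left in 1 group, and in them no log2FC of a member against Empty changed sign. The log2FC of CYTH4 was between -1.37 and -0.97 in NF-YAl and between 1.0 and 1.3 in NF-YAs, that of PADI3 between -2.27 and -1.87 and between 0.79 and 1.18, and that of CCDC144NL-AS1 between -2.60 and -1.47 and between 3.56 and 3.75. Without NF-YAl B, NCKAP1L had 0 counts in both remaining NF-YAl libraries.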

How the data were processed

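RNA-seq was measured in 9 libraries, 3 per group, of PC-3 MTSs, and the labels gave each library its group and replicate letter. Libraries were prepared with a stranded total RNA kit. The authors aligned reads to human RefSeq transcripts of hg19 (GRCh37) with bowtie2 within RSEM. For each gene and transcript they deposited the expected count, an estimate of reads that need not be whole and was not normalized, and the deposited TPM, scaled within a library and corrected for effective length. The authors also deposited for each transcript the percent of its gene's TPM. Lengths were deposited in bases and were not used in a test.

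Expected counts of genes were rounded and fitted with edgeR 4.0.16 in R 4.3.3 (TMM, filterByExpr, quasi-likelihood F tests over the 3 groups together, Benjamini-Hochberg adjustment over 17108 genes). A gene was called at a |log2FC| above 1 with an adjusted p under 0.01, and "rose" or "fell" refers to this. SE are |log2FC| over the square root of F. Since 3 libraries of 1 line per construct were compared, p-values measure the spread between experiments with these lines. The members, the gene lists and the rules were chosen with earlier results of these data known. A share of transcripts within a member comes from the same contrasts as the choice, so the planned exact permutation test, which cannot go below p = 0.1 with 3 libraries, is not given. The genes named were the members, their relatives set in the lists, called listed genes of at least 1 CPM (up to 4 per list), the most alike genes (Pearson r of log2 CPM, prior count 2), genes with opposite calls, genes just outside the fold threshold and the nearest tested genes. Some genes that the rule names are not reported here. NFYA and ABI3 are named outside this rule, after their values were seen, and cell markers come from the lists of prostate and leukocyte genes.

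Positions and transcripts came from GENCODE annotation of GRCh37, which placed 15414 tested genes, and the promoter from the RefSeq table of GRCh38.p14. Transcripts were aligned with blastn and compared by words of 50 bases in Python 3.11.15. Alternatives were DESeq2 1.42.0, limma 3.58.1 on log2(TPM + 0.5), other scaling, filters, a fit of only the groups compared, a block and leaving out each library. On simulated opposite changes in 200 of 17108 genes, edgeR recovered 199 with 0 false calls. The simulated folds were larger than those of CYTH4 in both contrasts, and the spread followed the trend over all genes. The changed genes were drawn from above a mean level that NCOR1P1 did not reach. Recovery of genes with small folds or few reads, as among the members, was therefore not tested.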

Additional observations from a re-analysis of the deposited data

How the results depend on the processing

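DESeq2, relative log expression scaling, no filter and an adjusted p under 0.05 kept the number of members that passed at 8. It was 2 with at least 10 counts in every library, which by construction removes 5 members with fewer and left PADI3 with a log2FC of 0.999 in NF-YAs, 3 with only the groups compared, 4 with the replicate block, and 2 with limma on log2(TPM + 0.5), and the number over all genes, 10 in the report, was 4, 5, 6 and 3. Leaving out 1 library gave 3 to 7 members and 3 to 11 genes. DHRS2 passed under all 17 alternatives. The labels do not say whether a replicate letter marks a shared experiment, and the letters were not taken as pairing. Deviations of libraries with the same letter correlated by 0.086 on average (7 pairs, -0.065 to 0.25) and those with different letters by -0.030. So few pairs cannot exclude a pairing, and with the replicate block 4 members passed.

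For all tested genes, those higher in NF-YAs were 618 with at least 10 counts in every library, and those higher in NF-YAl than in NF-YAs were 198 with only the groups compared and 500 at an adjusted p under 0.05. With limma, those lower were 228 in NF-YAl, 288 in NF-YAs and 246 in NF-YAl against NF-YAs. Leaving out 1 library gave 166 to 407 higher and 352 to 570 lower in NF-YAl against NF-YAs. Of the 100 listed genes outside the prostate markers, those lower were 1 in NF-YAl, 1 in NF-YAs and 4 in NF-YAl against NF-YAs with limma, and 1 was higher in NF-YAl than in NF-YAs at an adjusted p under 0.05. Leaving out 1 library gave 3 to 6 higher and 1 to 5 lower in NF-YAs, and 0 to 1 higher and 5 to 8 lower in NF-YAl against NF-YAs. Except where stated, the cause was not tested. The members' log2FC kept their signs under all alternatives and moved by more than the library spread in 30 values against 337 that did not, most of the 30 with limma on TPM, where the added 0.5 shrinks low values. With 10 tested genes on each side of a member in place of 5, 3 of 16 neighbour medians moved by over 0.1, among them that of ANKRD26P1 in NF-YAl (-0.80). Below 3 counts per library, as in NF-YAl for NCKAP1L and NCOR1P1, depth limits any fold.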
